A study of Caenorhabditis elegans with 8 samples.

Results

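The rows described here are those of genes that build, anchor and trigger the contractile apparatus of body wall and pharyngeal muscle in Caenorhabditis elegans. They were taken from a list of 35 sequence names that leaves out the actins and the calcium pump sca-1, and 34 of these names were found among the 45461 rows of the count table. The name K12F3.1, listed for the myosin gene myo-3, is not among the rows; the annotation gives myo-3 the name K12F2.1, and that row is reported beside the 34 without being counted with them. Of the 34 rows, 11 belong to the thick filament, 10 to the thin filament, 11 to the attachment of filaments to the membrane and matrix, and 2 to calcium channels.

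All worms were L2 larvae of the strain N2jrIs2[Prpl-17::Grx1-roGFP2], in which the promoter of a ribosomal protein gene drives a fluorescent sensor of glutathione redox state. They were raised at 20 °C on live E. coli OP50, and both groups carried the sensor. The redox label divides them into a reduced and an oxidized population with 4 biological replicates each, numbered 1, 2, 3 and 5, each a pool of about 10000 worms. Ages beyond the stage are not given. In replicate 5 the source name gives the opposite redox state to the redox label, and the redox label was followed; the description matches it, as does the use of High for reduced and Low for oxidized in the titles. The libraries held between 635990 and 1089259 counts. Levels are given as CPM, counts relative to the library total after TMM scaling (a trimmed mean of ratios between libraries). A floor of 3 counts in 1 library equals 2.71 to 4.70 CPM, which covers counting error only.

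In the sarcomere, thick filaments of myosin, wound around a paramyosin core, slide past thin filaments of actin that are gated by tropomyosin and troponin. Calcium released into the cytoplasm binds troponin and opens the thin filament to myosin. In C. elegans body wall muscle the thin filaments end in dense bodies and the thick filaments are held at M-lines, and both structures connect through integrin to the matrix between muscle and epidermis. The pharynx has muscle of its own, with separate myosin heavy chains.

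Rows of structural muscle genes had counts, whereas those of muscle regulators had few or none. The structural rows named next were chosen as muscle genes, so their counts do not test the muscle label. The rows of unc-54, unc-15 and unc-27 had counts in all 8 libraries, as did that of myo-3, whereas the row of hlh-1, the myogenic transcription factor, held 0 counts in all libraries together and that of unc-120 held 3. Transcription factor rows of other tissues were low too, at 12 counts for elt-1 (epidermis) and 6 for elt-2 (intestine). Of the pharyngeal markers, tnt-4 held 1204 counts and tnc-2 held 38. In bulk RNA, fewer muscle cells and less RNA per muscle cell cannot be told apart. No source used here gives the strand setting of the counting, so which strand's reads a row holds is not known, for muscle rows too. High and low values below are therefore those of rows, and may not be those of the gene's own transcript. Over the whole table there were 189 pairs in which at least 90% of a non-coding gene's exon bases lie within exons of a coding gene on the other strand and either row held at least 80 counts. In 173 of them the non-coding row had more counts per base.

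Thick filament rows made up the larger part of the muscle counts. Per length, the row of the regulatory light chain mlc-2 was far above the myosin heavy chain rows. The 11 rows held 12735 counts, against 9203 for the thin filament, 2389 for attachment and 128 for the calcium channels. Of the 12735, the light chains mlc-2, mlc-1 and mlc-3 held 5954, 2639 and 821. Without them the thick filament rows summed to a mean of 638 CPM in the reduced libraries and 389 in the oxidized ones. The thin filament rows summed to means of 1603 and 1154 CPM. Together the 34 rows took 0.382% of all counts. On the scale of CPM per kilobase of exon, mlc-2 stood at 1508 ± 697 in the reduced libraries and 1250.1 ± 559 in the oxidized ones (SD, n = 4). The unc-54 row (F11C3.3), for the major myosin heavy chain of body wall muscle, stood at 60.8 ± 41.1 and 35.6 ± 9.56 on the same scale. The rows of giant proteins were low, with 1.24 ± 0.778 CPM per kilobase in reduced worms for unc-22 (twitchin) and 0.138 ± 0.136 for the titin-like ttn-1. The genes mlc-1 and mlc-2 are close copies and neighbours on the X chromosome (mlc-1 at 17459210 to 17460778 and mlc-2 at 17455792 to 17456586 in WBcel235), so reads may have been split between their rows in a way that the counts do not show.

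The major body wall myosin varied more among the reduced libraries than the means of the groups differed. The unc-54 row stood at 736, 351, 282 and 139 CPM in reduced replicates 1, 2, 3 and 5 and at 279, 145, 255 and 205 CPM in oxidized ones. Reduced replicate 1 was the highest and reduced replicate 5 the lowest of all 8 libraries, so the groups overlapped. The log2 fold change of oxidized over reduced was −0.76 (SE 0.43, edgeR adjusted p = 0.999), and −0.22 without reduced replicate 1. The unc-15 row (F07A5.7), for paramyosin, had the same first and second libraries, with 220.4, 102, 57.0 and 59.1 CPM in the reduced libraries and 93.0, 42.7, 61.1 and 65.3 CPM in the oxidized ones (log2 fold change −0.71, SE 0.50, edgeR adjusted p = 0.999). Without reduced replicate 1 the unc-15 log2 fold change was −0.13. The myo-3 row, for the minor body wall myosin of the filament centre, stood at 107, 89.1, 69.6 and 21.7 CPM in the reduced libraries and at 50.6, 8.54, 15.7 and 31.9 CPM in the oxidized ones. Here 3 of 4 pairs were lower in oxidized worms, and replicate 5 went the other way. Its log2 fold change was −1.32 (SE 0.60, unadjusted p = 0.0356, edgeR adjusted p = 0.915).

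The regulatory light chains mlc-1 and mlc-2 had their highest value in another library. The mlc-2 row stood at 638, 1588, 998 and 642 CPM in reduced worms and at 1146, 531, 1073 and 456 CPM in the oxidized ones. Reduced replicate 2 was highest, followed by oxidized replicates 1 and 3, so high values occurred in both groups (log2 fold change −0.27, SE 0.37, edgeR adjusted p = 0.999; 0.10 without reduced replicate 2). The mlc-1 row had the same first and second libraries, with 367, 809, 348 and 272 CPM in the reduced libraries and 529, 242, 279 and 213 CPM in the oxidized ones (log2 fold change −0.50, SE 0.40, edgeR adjusted p = 0.999; −0.02 without reduced replicate 2). The essential light chain mlc-3 peaked in reduced replicate 1, with 195, 180.2, 111 and 67.6 CPM in the reduced libraries and 141, 86.8, 125 and 90.01 CPM in the oxidized ones, which gave a log2 change of −0.32 (SE 0.43, edgeR adjusted p = 0.999; −0.11 without reduced replicate 1).

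Of the other thick filament rows, the pharyngeal myosins myo-1 and myo-2 held 117 and 210 counts. The myo-2 row stood at 138 CPM in reduced replicate 1 and at 0 in reduced replicate 3, with 5.69 to 37.7 CPM in the oxidized ones (log2 fold change −0.999, SE 0.79, edgeR adjusted p = 0.999). The myo-1 row ran the same way, at 89.5 CPM in reduced replicate 1 and 2.78 to 21.8 CPM in the other 7 libraries. With 67 of its 117 counts in reduced replicate 1, it did not pass the filter for testing. Both pharyngeal myosins thus had their highest value in reduced replicate 1 and their next in oxidized replicate 5. The unc-22 and unc-89 rows (unc-89 is the obscurin-like M-line protein) had log2 fold changes of 0.08 (SE 0.64) and −0.44 (SE 0.65). The rows of ttn-1 and of unc-45, the myosin chaperone, held 56 and 39 counts and were not tested.

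**Figure D1:**
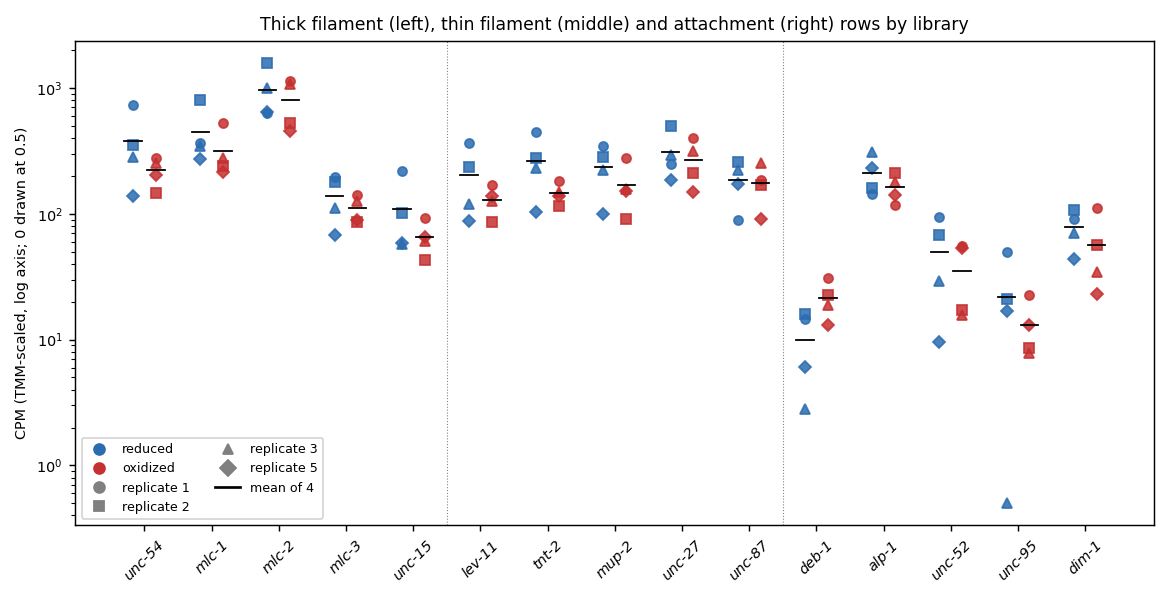
Level of each fully described muscle row in each of the 8 libraries, as TMM-scaled CPM on a log axis, with reduced libraries in blue, oxidized in red, 1 marker shape per replicate and a bar at the mean of 4. The groups overlap for every row shown, and the unc-54 row spans 139 to 736 CPM within the reduced group.

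All 10 thin filament rows were tested, and all 10 had a fitted log2 fold change below 0, but none passed the test. Without reduced replicate 2, 6 of 10 were below 0. The row of tnt-2 (F53A9.10), a troponin T, was closest. It stood at 446, 280.3, 231 and 103.8 CPM in the reduced libraries and at 181, 115, 149 and 139 CPM in the oxidized ones. Replicate 5 was the pair in which the oxidized library was higher, and reduced replicate 5 was the lowest of all 8 (log2 fold change −0.85, SE 0.42, unadjusted p = 0.0525, edgeR adjusted p = 0.944; −0.48 without reduced replicate 1). The mup-2 row, for another troponin T, had 343, 283, 221 and 99.0 CPM in the reduced libraries and 278, 91.1, 158 and 152 CPM in the oxidized ones (log2 fold change −0.46, SE 0.42, edgeR adjusted p = 0.999; −0.22 without reduced replicate 1). The lev-11 row (Y105E8B.1), for tropomyosin, had 366, 236, 119.6 and 88.1 CPM in the reduced libraries and 169.7, 85.4, 125 and 138 CPM in the oxidized ones. In lev-11 the oxidized library was lower in replicates 1 and 2 and higher in replicates 3 and 5 (log2 fold change −0.63, SE 0.44, edgeR adjusted p = 0.999; −0.19 without reduced replicate 1).

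The rows of unc-27 and of the calponin-like unc-87 had fitted changes nearest to 0 in the group. The unc-27 row (ZK721.2), for the main body wall troponin I, stood at 247, 503, 295 and 187 CPM in the reduced libraries and at 404, 212, 315 and 148 CPM in the oxidized ones, which gave a log2 change of −0.19 (SE 0.40, edgeR adjusted p = 0.999; 0.18 without reduced replicate 2). The unc-87 row, whose protein binds and stabilizes thin filaments, stood at 89.5, 257, 223 and 171 CPM and at 186, 168, 255 and 91.5 CPM. Its log2 fold change was −0.09 (SE 0.41, edgeR adjusted p = 0.999), and its sign turned under 6 of 18 alternatives. The other 5 rows were tni-3 (a troponin I, −0.30), tni-4 (the pharyngeal troponin I, −0.76), pat-10 (troponin C, −0.76), cpn-3 (a calponin, −0.75) and unc-60 (cofilin, which severs actin filaments, −0.43). Their standard errors lay between 0.43 and 0.60. The unc-60 exons share 56 bases with a neighbouring gene on the same strand, so part of its counts is uncertain.

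Attachment rows were low, and 5 of 11 could be tested. The alp-1 row (T11B7.4), for a LIM-domain protein of the dense bodies, dominated the group, with 143, 160.2, 312 and 232 CPM in the reduced libraries and 118, 212, 180.1 and 141 CPM in the oxidized ones. Its highest value fell in reduced replicate 3, where no other tested muscle row peaked (log2 fold change −0.38, SE 0.39, edgeR adjusted p = 0.999; −0.15 without reduced replicate 3). The dim-1 row, for an immunoglobulin-domain protein near the dense bodies, had 90.8, 107, 71.0 and 43.4 CPM in the reduced libraries and 111.96, 56.9, 34.5 and 23.2 CPM in the oxidized ones (log2 fold change −0.40, SE 0.52, edgeR adjusted p = 0.999; −1.04 without oxidized replicate 1 and −0.17 without reduced replicate 2). The unc-52 row, for perlecan, the matrix proteoglycan to which muscle attaches, had 93.5, 68.1, 29.2 and 9.65 CPM and 55.1, 17.1, 15.7 and 53.7 CPM. In unc-52 replicate 5 again ran against the other pairs (log2 fold change −0.45, SE 0.62, edgeR adjusted p = 0.999; 0.0021 without reduced replicate 1).

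The deb-1 row (ZC477.9), for vinculin of the dense bodies, was the tested member that stood higher in oxidized worms in all 4 pairs. It held 11, 16, 2 and 5 counts in reduced replicates 1, 2, 3 and 5 and 34, 16, 12 and 9 counts in oxidized ones. The value in reduced replicate 3 was below the floor of 3 counts. In replicate 2 both libraries held 16 counts, and the oxidized one was higher only as CPM. As CPM the groups still overlapped, at 9.88 ± 6.48 in the reduced libraries and 21.3 ± 7.41 in the oxidized ones (SD, n = 4; log2 fold change 1.102, SE 0.684, edgeR adjusted p = 0.999). The unc-95 row, for a LIM-domain protein of dense bodies and M-lines, had 49.4, 21.02, 0 and 16.9 CPM in the reduced libraries and 22.6, 8.54, 7.83 and 13.1 CPM in the oxidized ones. The reduced group thus held both its highest and its lowest library (log2 fold change −0.64, SE 0.74, edgeR adjusted p = 0.999; 0.06 without reduced replicate 1). The 6 rows too low to test were those of atn-1 (alpha-actinin, 64 counts), pat-3 (beta-integrin, 58), unc-112 (kindlin, 49), pat-4 (integrin-linked kinase, 29), pat-6 (parvin, 26) and unc-97 (PINCH, 15). None of these 6 rows held more than 64 counts in all libraries together, whereas alp-1 held 1175.

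Both calcium channel rows were also too low to test. The egl-19 row, for the voltage-gated calcium channel of the muscle membrane, held 50 counts, with 10.7, 0, 0 and 13.3 CPM in the reduced libraries and 8.13, 12.8, 6.26 and 13.1 CPM in the oxidized ones. Its highest libraries were those of replicate 5 in both groups. The unc-68 row, for the ryanodine receptor of the sarcoplasmic reticulum, held 78 counts and stood at 14.3 ± 7.64 CPM in the reduced libraries and 8.67 ± 3.99 in the oxidized ones (SD, n = 4).

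Setting oxidized against reduced worms asks whether muscle transcripts differ between larvae of 1 stage that differ in redox state. No muscle row passed: of 23 tested, 0 were higher and 0 lower (edgeR, p adjusted over all rows tested, under 0.05), where 0.216% of all 2315 rows tested were called, 0.216% higher and 0.0% lower. At an unadjusted p under 0.05 there were 0 of 23, against 5.27% of all rows, and 1 of 24 with myo-3 added. DESeq2 and limma voom also called 0 at the adjusted threshold. The fitted change was below 0 in 21 of 23 rows, against 54.2% of all rows, and the median was −0.45, against −0.05 over all rows. Without reduced replicate 2, 16 of 23 were below 0. By group the median was −0.47 over 8 thick filament rows, −0.54 over 10 thin filament rows and −0.40 over 5 attachment rows. These rows share libraries and are not independent, and 11 members did not pass the filter. In simulated data the fit called 16.1% of rows given a 2-fold change and 62.2% of those given a 4-fold change. The groups of 4 overlapped in all 23 rows, where they did not overlap in 2.98% of all rows.

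**Figure D2:**
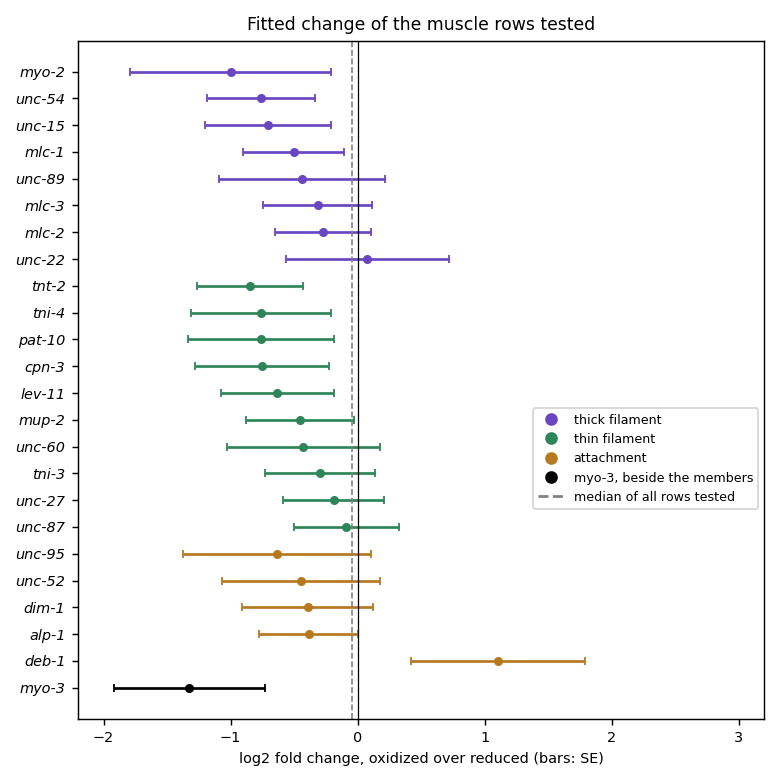
Fitted log2 fold change of oxidized over reduced worms for the 23 muscle rows tested and for myo-3, with bars of 1 SE, coloured by group; the dashed line marks the median of all rows tested, −0.05. All 10 thin filament rows lie below 0 (6 of 10 without reduced replicate 2), deb-1 lies highest at 1.102, and no row passed the adjusted test.

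The lower values were most uniform in replicate 2. There the oxidized library was below the reduced one in 21 of 23 tested muscle rows, with a median log2 ratio of −1.46 (0.5 CPM added), against 49.4% of all rows tested and a median of 0.02. In replicate 1 it was below in 13 of 23 rows, in replicate 3 in 11 and in replicate 5 in 11, with medians of −0.27, 0.07 and 0.14. Replicates 1 and 2 share the date June28 in their titles, and replicates 3 and 5 are single pairs from July7 and August6. Without reduced replicate 2 the median of the tested rows was −0.22 in place of −0.45, without reduced replicate 1 it was −0.28, and without oxidized replicate 1 it was −0.86. No tested member was lower in oxidized worms in all 4 pairs; 12 were lower in 3 pairs and 10 in 2.

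By group, all 8 thick and all 10 thin filament rows were lower in the oxidized library of replicate 2, with median log2 ratios of −1.66 and −1.47. In replicate 1, 6 of 8 thick filament rows were lower in the oxidized library, with a median log2 ratio of −0.85, whereas 6 of 10 thin filament rows were higher, with a median of 0.25. In replicates 3 and 5, 6 of 8 thick filament rows were higher in the oxidized library, with medians of 0.14 and 0.44. In the same replicates 6 of 10 thin filament rows were lower, with medians of −0.39 and −0.13. Attachment rows were lower in 3 of 5 rows in each of the 4 replicates. Over all rows tested, 48.3% to 49.4% were lower in the oxidized library of a replicate. The difference between the groups of rows was not tested.

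Summed over a group of rows, thin filament and attachment levels were lower in every oxidized library than in its reduced partner, and thick filament levels were lower in 3 of 4 pairs. The 10 thin filament rows summed to 1838, 2254, 1436 and 885 CPM in reduced replicates 1, 2, 3 and 5 and to 1625, 889.5, 1262 and 841 CPM in oxidized ones. The 11 attachment rows summed to 425, 431, 431 and 335 CPM and to 404, 336, 291 and 266 CPM. Both sums were thus lower in 4 of 4 pairs, by little for the thin filament in replicate 5, and the groups overlapped in both. All 11 thick filament rows summed to 2472, 3184, 1848 and 1264 CPM in the reduced libraries and 2273, 1092, 1884 and 1221 CPM in the oxidized ones, with replicate 3 the exception. All 34 members together were lower in 4 of 4 pairs, at 4221 ± 1445 CPM in the reduced libraries and 3114.5 ± 959 in the oxidized ones (SD, n = 4). Within the thick filament, rows without the light chains summed to 1272, 608, 391 and 282 CPM in the reduced libraries and 457, 232, 407 and 462 CPM in the oxidized ones, lower in 2 of 4 pairs. The 3 light chains summed to 1201, 2577, 1457 and 981 CPM and to 1816, 859.7, 1477 and 759 CPM, also lower in 2 of 4 pairs, but in replicates 2 and 5 in place of 1 and 2.

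**Figure D3:**
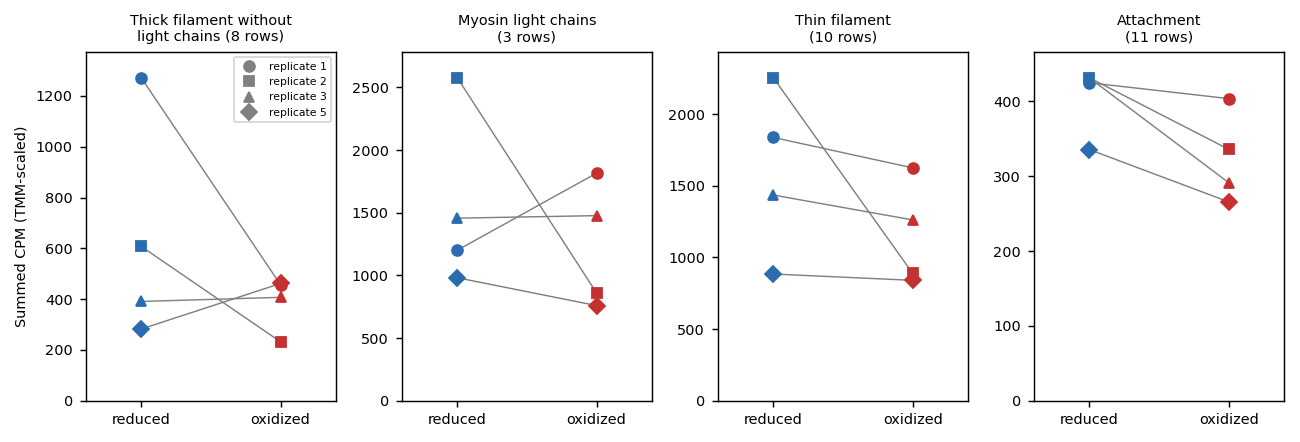
Summed TMM-scaled CPM of 4 sets of muscle rows in each library, with a grey line joining the reduced and oxidized library of each replicate. Reduced replicate 1 stands highest at 1272 CPM for thick filament rows without light chains, and reduced replicate 2 at 2577 CPM for the light chains.

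The libraries were split by which muscle rows they favoured. Of 23 tested rows, 9 had their highest CPM in reduced replicate 1 (unc-54, unc-15, myo-2, mlc-3, lev-11, tnt-2, mup-2, unc-52 and unc-95). A further 8 had it in reduced replicate 2 (mlc-1, mlc-2, unc-27, tni-4, pat-10, unc-60, unc-87 and cpn-3). Of all 2315 rows, 18.01% peaked in the first and 14.8% in the second. Ratios of counts within a library do not depend on scaling between libraries. The pairs for the ratios were picked with these peaks known, so ratios across them restate the difference as values. The ratio of unc-54 to mlc-2 was 1.15 in reduced replicate 1, 0.449 in oxidized replicate 5, and between 0.216 and 0.283 in the other 6 libraries. The ratio of lev-11 to unc-27, tropomyosin to troponin I, was 1.48, 0.931 and 0.398 to 0.471 in the same libraries.

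Some rows that peaked in the same library had ratios of narrower range, which the choice of pairs with their peaks known favours. Without reduced replicate 1 the ratio of unc-54 to mlc-2 lay between 0.216 and 0.449. Its contrast with the ratios below thus rests on that library. The ratio of unc-15 to unc-54 lay between 0.202 and 0.426, with 0.305 ± 0.0922 in the reduced libraries and 0.296 ± 0.0414 in the oxidized ones (SD, n = 4). The ratio of mlc-1 to mlc-2 lay between 0.260 and 0.575. The ratio of myo-3 to unc-54, which also peaked together, varied more, at 0.200 ± 0.0575 in the reduced libraries and 0.114 ± 0.0635 in the oxidized ones, with the lowest values, 0.0588 and 0.0614, in oxidized replicates 2 and 3.

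**Figure D4:**
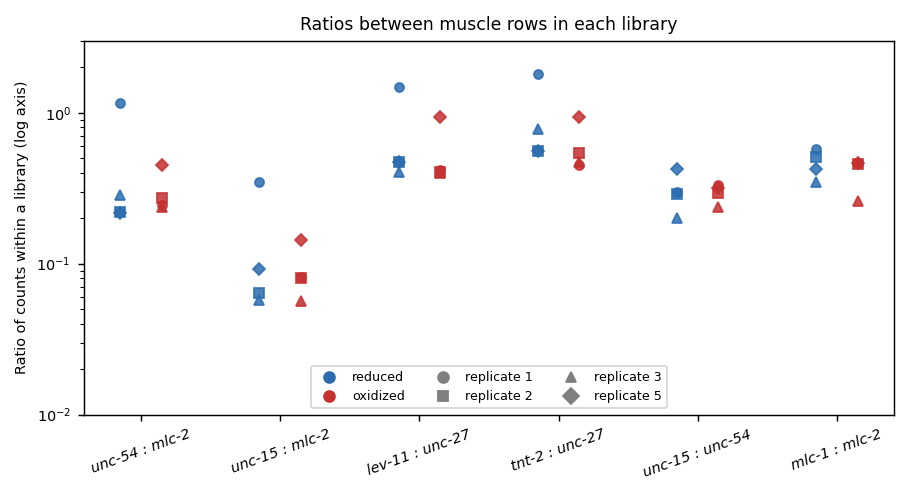
Ratio of counts between pairs of muscle rows within each library, on a log axis, with reduced libraries in blue, oxidized in red and 1 marker shape per replicate. Reduced replicate 1 stands above the other libraries in the first 4 ratios, and the ratios of unc-15 to unc-54 and of mlc-1 to mlc-2 span a narrower range. The pairs were picked with the peak libraries known.

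Exon length was set against the difference between reduced replicates 1 and 2. Of 11 tested members with 2000 exon bases or more, 5 were higher in reduced replicate 1, with a median log2 ratio of −0.12, and of 12 shorter ones 4 were, with a median of −0.80. Over the 23 tested members, exon length and the log2 ratio of reduced replicate 1 to reduced replicate 2 had a Spearman rho of 0.485, given as a description over rows that share libraries. Over 2290 tested rows with a length it was 0.00137. Single members departed from it: unc-87, with 2362 exon bases, had a log2 ratio of −1.52, and unc-95, with 1148, had 1.21. Exon length and the log2 fold change between the groups had a rho of 0.0435.

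The share of muscle rows moved with the share of ribosomal protein rows. Muscle rows took 0.670% of counts in reduced replicate 2 and 0.439% in oxidized replicate 1, and the 78 ribosomal protein rows took 6.05% and 4.78%, the highest values of both. Both shares were lowest in oxidized replicate 2, at 0.222% and 1.69%. Reduced replicate 1 had 0.431% for muscle, close to oxidized replicate 1, but 2.41% for ribosomal protein rows, below both libraries of replicate 3. The part of this in the lower muscle values was not tested.

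Several muscle genes lie opposite rows that hold far more counts than their own. Of the 34 members, 10 share at least 1 exon base with a row on the other strand and 6 share at least 20. The mlc-1 gene meets slc-17.1, named for a solute carrier transporter, at a single base, X 17460778, where both end. The slc-17.1 row held 427440 counts, 6.67% of the table and its second highest row, against 2639 for mlc-1, a 162-fold difference in counts and 109-fold per base. It was picked out after its values were seen. It stood at 56044, 64001, 81386 and 92298 CPM in the reduced libraries and at 51079.9, 77403, 63592 and 50814 CPM in the oxidized ones (log2 fold change −0.28, SE 0.29, edgeR adjusted p = 0.999). Reduced replicate 5 was its highest library and reduced replicate 2, where mlc-1 peaked, lay below both reduced replicates 3 and 5, so the rows peaked in different libraries.

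Opposite mlc-2, whose exons share 77 bases with C36E6.2, that row held 7457 counts against 5954. It stood at 1321 ± 321 CPM in the reduced libraries and 1010.2 ± 223 in the oxidized ones, lower in oxidized worms in 4 of 4 pairs (SD, n = 4; log2 fold change −0.39, SE 0.32, edgeR adjusted p = 0.999). The ZK829.9 row shares 93 exon bases with the end of unc-22 on chromosome IV and held 5311 counts, against 198 for unc-22 over 23368 exon bases (log2 fold change −0.08, SE 0.34, edgeR adjusted p = 0.999). Inside egl-19 lie the non-coding C48A7.12, sharing 39 bases and holding 1404 counts, and the piRNA locus 21ur-15006, of 21 bases and 1468 counts, where egl-19 held 50 counts. Their log2 fold changes were 0.44 (SE 0.45) and −0.23 (SE 0.39), and the adjusted p of both was 0.999 (edgeR). The piRNA locus 21ur-14731 shares 9 bases with deb-1 and held 1135 counts, 10.8 times those of deb-1; its log2 fold change was −0.26 (SE 0.46), opposite in sign to that of deb-1. It too was picked out after its values were seen.

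Other opposite rows were lower than the muscle rows. The unc-87 row held 1176 counts against 30 for F08B6.1, with which it shares 182 bases, and alp-1 held 1175 against 8 for C09G9.1, with 116 bases shared. The unc-52 row held 287 against 17 for hhat-1 and unc-112 held 49 against 21 for gasr-8. In tni-4 the rows were about level, at 425 counts and 393 for Y59E9AL.36. None of the 7 opposite rows that could be tested passed, and the other 5, all of them low, were not tested.

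**Figure D5:**
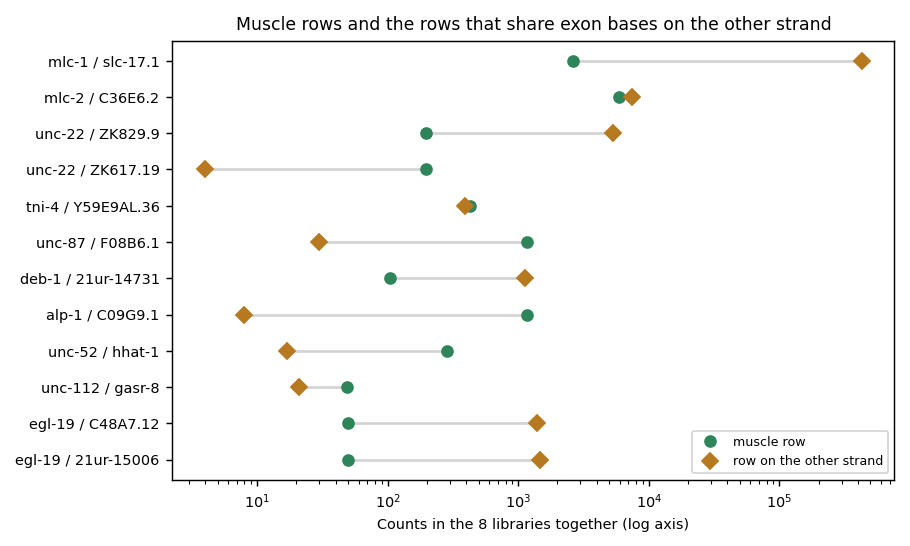
Counts in all 8 libraries together for each muscle row (circles) and for the row that shares exon bases with it on the other strand (diamonds), on a log axis. The slc-17.1 row opposite mlc-1 reaches 427440 counts, whereas F08B6.1 opposite unc-87 and C09G9.1 opposite alp-1 hold 30 and 8.

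Further muscle genes did not pass either. Of 25 other sarcomere genes, 14 rows were tested, 0 were called and 9 were below 0, with a median log2 fold change of −0.10. The unc-23 row, for a cochaperone needed to maintain muscle attachment, went the other way, at 1003 ± 371 CPM in the reduced libraries and 1721 ± 229.5 in the oxidized ones (SD, n = 4; log2 fold change 0.78, SE 0.32, edgeR adjusted p = 0.773). Its groups did not overlap, and its exons share 93 bases with T19A5.3 on the other strand. The unc-82 row, for a kinase that organizes thick filaments, had −1.32 (SE 0.74, edgeR adjusted p = 0.999). Of 17 genes that join muscle to epidermis, 9 rows were tested and 0 called, with a median of −0.46; let-805 (myotactin) had −1.09 (SE 0.79) and ifb-1 (an intermediate filament of the epidermis) −0.88 (SE 0.64).

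Of 20 genes of excitation and calcium handling, 3 rows were tested and 0 called, with a median of −0.13. The unc-38 row, for an acetylcholine receptor subunit, had −1.15 (SE 0.86) and ncx-1, for a sodium-calcium exchanger, 0.24 (SE 0.34). The rows of unc-29, unc-63, lev-8 and egl-36 held 0 counts. Of 8 dystrophin complex genes, 3 rows were tested and 0 called, with a median of −0.65; dyb-1 (dystrobrevin) had −0.75 (SE 0.55) and dys-1 (dystrophin) −0.65 (SE 0.65). Of 8 non-muscle myosin genes, 3 rows were tested and 0 called, all 3 above 0 with a median of 0.34; hum-6 had 0.38 (SE 0.41) and nmy-2 0.31 (SE 0.44). None of the 5 muscle transcription factor rows was tested.

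Markers of other cell types were summed in the same libraries. All 12 rows listed as epidermal markers had counts. They summed to 6437 to 26182 CPM in the reduced libraries and 15112 to 34966 CPM in the oxidized ones. Of the 12, 6 were tested and 0 were called. At an unadjusted p under 0.05 in edgeR there were 4 of 6, against 5.27% of all rows tested. All 6 were above 0, as were 1061 of all 2315 rows tested. Among the untested rows, bli-1 and nhr-25 had lower means in the oxidized libraries, and elt-1, lin-26 and grl-7 had higher ones. The list also holds tbb-4, a beta-tubulin gene that is not an epidermal marker. Its mean was lower in the oxidized libraries but rested on 3 counts in all. The 12 intestinal rows, all with counts, summed to 186 to 772 and 275 to 565 CPM, and 11 neuronal rows to 66.4 to 177 and 61.2 to 167 CPM. The 11 rows of the pharynx other than muscle summed to 79.6 to 701 and 95.5 to 225 CPM. Their sum was highest in reduced replicate 1, where abu-8 stood at 319 and abu-11 at 222 CPM. The rows of abu-6, abu-7, pqn-54 and dod-6 also peaked there. Those of phat-1 and phat-2 peaked in reduced replicate 2, phat-4 in oxidized replicate 1, and marg-1 and pqn-2 in oxidized replicate 5. Of 10 germ line rows, pgl-3 and gld-1 held 0 counts, and the rest summed to 62.8 to 91.1 CPM in the reduced libraries and 32.7 to 56.6 CPM in the oxidized ones. These sums did not overlap, and him-3 made up most of the gap, at 41.1 ± 17.8 and 15.98 ± 10.4 CPM (SD, n = 4), with groups that overlapped. The part of other cell types in the muscle values was not tested.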

How the data were processed

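What the authors deposited is 1 table of raw, unnormalized counts, a row per gene. Per the labels' protocols, RNA extracted with Trizol (100 ng) was depleted of ribosomal RNA and made into stranded libraries with 15 PCR cycles, read as paired ends of 50 nt; the molecule label reads polyA RNA instead. Tools listed in the submitters' processing notes are Bowtie2 2.2.1, TopHat2 2.0.13, Cuffdiff 2.1.1, Cufflinks and FastQC 0.11.3. No source used here gives the build, annotation or strand setting. The table has 2 further columns that match no sample in the labels and were not used.

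Names and coordinates come from Ensembl's WBcel235 gene models; 528 rows, with 0.363% of counts, matched no single gene. All rows passing filterByExpr (2315) were fitted with edgeR 4.0.16 (TMM, glmQLFit robust, legacy = FALSE, no block) in R 4.3.3, with Benjamini-Hochberg adjustment over all of them; DESeq2 1.42.0 and limma 3.58.1 (voom) were alternatives. The fit was tested on simulated data. There it called 16.1% of rows given a 2-fold change, 62.2% at 4-fold and 92.7% at 8-fold. Of rows given no change it called 0.338%. Titles give the same date to both libraries of a number, which was taken as pairing them; their deviations from group means correlated at 0.0576, −0.159, 0.129 and 0.302, so the values do not settle it. Exon bases are the union over a gene's transcripts.

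The members and lists were chosen with earlier results of these data known. Full values are given for the 4 rows of highest mean CPM and the 2 of smallest p in each group. In other muscle lists the 2 rows of smallest p are named, and on the other strand rows sharing at least 20 exon bases and holding at least 80 counts; further rows are named after their values were seen. No sequence is printed.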

Additional observations from a re-analysis of the deposited data

Results flagged for a closer look

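Among 48 sets of 4 values (each tested muscle row and myo-3 in each group), 2 held a library set apart from its group; chance gives about 1 in 20. In the myo-2 row, for a pharyngeal myosin heavy chain, reduced replicate 1 was at 138 CPM and the rest of its group at 0 to 23.02 CPM. In the cpn-3 row, for a calponin, oxidized replicate 1 was at 72.2 CPM and the rest of its group at 29.8 to 32.7 CPM.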

How the results depend on the processing

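No muscle row was called in either direction under any of the 18 alternatives, among them the replicate block, the exchange of the labels of replicate 5, and a fit without reduced replicate 2 and oxidized replicate 1 that was chosen after seeing the data. The fit without a filter covered all 34 members, with a median of −0.39. With the replicate block the median log2 fold change of the tested rows was −0.52, and the block changed no call; with the labels of replicate 5 exchanged the median was −0.66 and without replicate 5 −0.70. In fits that left out 1 library it ran from −0.86 to −0.22 for the tested rows, from −0.89 to −0.17 for thick filament, from −0.90 to −0.23 for thin filament and from −0.80 to 0.0021 for attachment rows; the attachment extremes came without oxidized replicate 1 and without reduced replicate 1. Of 286 values for single rows, 275 kept their sign and 11 changed it. Over all alternatives mlc-2 ran from −0.50 to 0.10, unc-27 from −0.47 to 0.18, unc-52 from −1.23 (labels of replicate 5 exchanged; −0.98 without replicate 5) to 0.0021 and unc-95 from −1.16 to 0.24. The sign of unc-87 changed without reduced replicate 2 (0.14), reduced replicate 3 (0.0013), oxidized replicate 5 (0.097) or both libraries of replicate 5 (0.098), with the labels of replicate 5 exchanged (0.22), and without reduced replicate 2 and oxidized replicate 1 (0.094); its lowest value was −0.35. That of mlc-2 and unc-27 changed without reduced replicate 2, of unc-52 and unc-95 (0.059) without reduced replicate 1, and of unc-95 with limma voom; the cause was not tested. The 11 untested members held 15 to 117 counts in all libraries together, and the cause of their low counts was not tested.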

Other observations

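The basement membrane collagen IV genes emb-9 and let-2, which body wall muscle is known to express, had the same highest and lowest library as unc-54. They were picked out after their values were seen. The emb-9 row stood at 333, 95.1, 104.3 and 38.6 CPM in reduced replicates 1, 2, 3 and 5 and at 126, 71.2, 67.3 and 123 CPM in oxidized ones. The let-2 row stood at 632, 122, 152 and 74.8 CPM and at 217, 111, 113 and 190.2 CPM. Both were highest in reduced replicate 1 and lowest in reduced replicate 5, and in replicate 5 both were higher in the oxidized library. Neither passed the test, with log2 fold changes of −0.52 (SE 0.52) and −0.61 (SE 0.51) and an edgeR adjusted p of 0.999 for each. The pharyngeal troponin T row tnt-4 had the same highest library, at 411 CPM, and oxidized replicate 5 next at 241 CPM. Other pharyngeal markers did not share this. The tni-4 row peaked in reduced replicate 2 at 143 CPM, with 58.8 CPM in reduced replicate 1. The tnc-2 row, with 38 counts in all, was at 0 in reduced replicate 1.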
